A study of Mus musculus with 10 samples.

Results

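The ileum, the last segment of the small intestine, was compared between aged mice given LB81 yogurt and aged mice on plain control diet. The comparison was chosen by tissue label and holds 2 arrays, the yogurt pool and the control pool of ileum, out of 10 arrays in all. Both pools came from male mice of the outbred ICR stock, killed at 28 months of age, housed 1 per cage under specific-pathogen-free conditions and kept on AIN-93 diet. The yogurt pool combined RNA of 10 mice whose diet had contained 1 to 2% LB81 yogurt, a fermented milk, since 8 months of age. The control pool combined RNA of 9 mice on AIN-93 alone. The other 8 arrays held the jejunum, distal colon, liver and spleen of the same mice, pooled in the same way. The comparison asks what 20 months of yogurt feeding left different in the transcripts of the old ileum.

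The ileal epithelium absorbs what the jejunum has left, and it is the place where bile acids are taken back for return to the liver. Its enterocytes import bile acids through Slc10a2, carry them on Fabp6, export them through Slc51a and Slc51b, and signal the load to the liver through the hormone Fgf15. Paneth cells at the crypt base secrete antimicrobial proteins, goblet cells secrete mucus, and the wall beneath holds immune cells, vessels, smooth muscle and neurons. All of these contribute RNA to a piece of whole ileum. In such bulk samples fewer cells of a type and less RNA per cell cannot be told apart.

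Each value was the deposited log2 expression value of a probe set, and each of 18194 genes was represented by the brightest of its probe sets, averaged over the 10 arrays. Values below the array median, 5.48 in both ileum pools, were raised to it, and this median is called the floor. A gene counted as measured when at least 1 ileum array lay above the floor, which held for 12304 genes. The log2 ratio of yogurt over control, written simply as the ratio from here on, is a difference of log2 levels. With 1 pool per diet no ratio has a replicate check, so none was tested within the ileum and none is called a change. The available gauge of measurement error was the spread between different probe sets of 1 gene, a pooled SD of 0.145 over the ratios of 4858 genes with at least 2 probe sets above the floor. This gauge leaves out the spread between mice, and smaller ratios than this describe the pair of arrays only.

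The labels fitted the tissue. Fabp6 was at 13.83 with yogurt and 13.82 in control, against at most 8.05 on the jejunum and colon arrays. Slc10a2 was at 10.75 and 10.61, and Fgf15 at 9.09 and 9.17. Aqp8, a colonic water channel, the jejunal lactase Lct and the hepatocyte genes Alb and Ahsg were below the floor in both ileum pools, and so were the pancreatic enzymes Cpa1, Cpb1 and Cela2a. The follicle genes Cr2, Cxcr5 and Ms4a1 were below the floor too. Other genes of neighbouring segments and liver were above it, as in Slc26a3 at 10.74 and 10.79, Car1 at 7.54 and 8.81, Creb3l3 at 10.19 and 10.60, Cyp2c55 at 7.49 and 8.47 and the hepatocyte gene Ttr at 7.08 in control. The 3′ over 5′ log2 ratio, a sign of RNA quality, was close between the pools for Gapdh (0.08 in yogurt, 0.05 in control) and for actin (0.67 and 0.66).

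The pools were very alike. Their Spearman correlation over probe sets was 0.994, the ratios had an SD of 0.16 over all measured genes, and they ran from -0.34 to 0.28 with the outermost 5% of genes left out. In the yogurt pool 8 genes (0.065% of those measured) were at least 2-fold higher and 4 (0.0325%) at least 2-fold lower. At 1.5-fold, 26 genes (0.211%) were higher and 36 (0.293%) lower, a balance that turned to 31 and 26 when the ratios were centred on their median. That median was -0.04, so 62.1% of genes had a ratio below 0 and 37.9% above it. Counts of gene groups are read against these shares, and each group's median against -0.04. Of 52 gene lists, 15 had a median at least 0.1 above it and 2, sugar uptake and mesothelium, at least 0.1 below it. Other lists described as lower fell short of that distance. The ratios spread most among dim genes, with an SD of 0.20 among the 3076 genes of lowest level and 0.12 among the 3076 of highest level. Of the 12 genes past 2-fold, 5 were among the former and 1 among the latter.

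**Figure D1:**
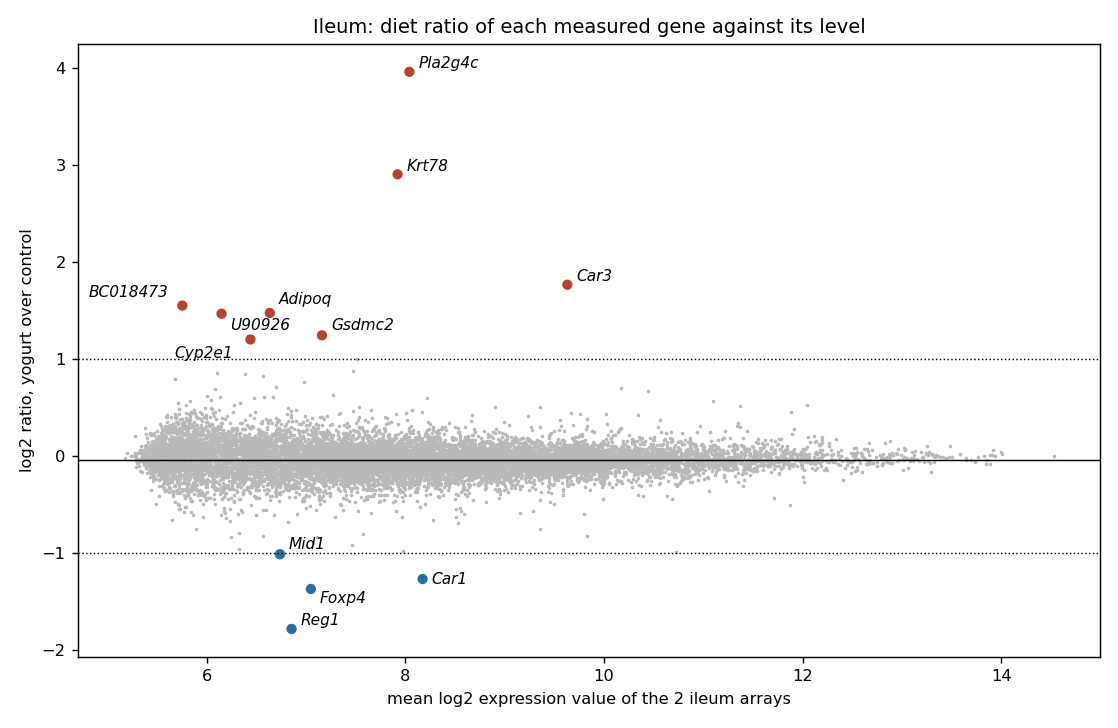
Log2 ratio of yogurt over control in ileum (vertical axis) against the mean log2 expression value of both ileum arrays (horizontal axis), 1 point per measured gene (12304). The solid line is the median of all genes (-0.04), dotted lines mark 2-fold, and the 12 named genes are those past 2-fold, red for higher and blue for lower in the yogurt pool.

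The largest difference was in Pla2g4c, a cytosolic phospholipase that releases fatty acids from membrane lipids. It was at 10.02 with yogurt and 6.06 in control, 15.6-fold higher (ratio 3.96). Its jejunum values went the same way, 7.28 with yogurt and 4.44 in control. The colon, liver and spleen arrays stayed below the floor, at 3.92 to 5.01. A second Pla2g4c probe set stood at 5.95 and 5.11 in the ileum pools, with the control value below the floor and so a ratio of at least 0.47, and the mean of both probe sets before any floor gave 2.40. The 11 other measured phospholipase A2 genes did not share this size, with ratios from -0.52 for Pla2g5 to 0.18 for Pla2g15. Below 0 were also Pla2g10 (-0.20), Pla2g4a (-0.19), Pla2g12b (-0.19), Pla2g6 (-0.14), Pla2g12a (-0.09) and Plaat3 (-0.01), and above it Pla2g7 (0.06) and Pla2g2d (0.12). Pla2g2a, the secreted antibacterial member, was at 12.82 and 12.86.

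Krt78, a type II keratin of stratified epithelia, was at 9.38 with yogurt and 6.47 in control, 7.49-fold higher (ratio 2.90). The other 8 arrays lay between 5.44 and 6.04, so the yogurt ileum stood apart from all of them. Only 1 probe set carries this symbol. Among the other keratins, those of simple epithelium were flat, with Krt8 at -0.04, Krt18 at -0.06, Krt19 at -0.12 and Krt20 at -0.07. Other keratins of stratified epithelia showed no like difference. The other measured keratins were Krt12 (-0.32), Krt23 (-0.20) and Krt7 (-0.10). Krt13, Krt14 and Krt15 were below the floor in both pools and Krt5 was at 6.26 and 6.16.

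Car3, a carbonic anhydrase abundant in fat, liver and muscle, was at 10.52 and 8.75, 3.40-fold higher with yogurt (ratio 1.77), and its other probe set above the floor gave 1.43. Adipoq, the adipocyte hormone adiponectin, was at 7.37 and 5.90 (ratio 1.48). Cyp2e1, an ethanol-oxidising cytochrome of liver and fat, was at 7.04 and 5.84 (1.20). All 3 genes were also more than 2-fold higher in the yogurt pool of distal colon, at ratios of 1.98, 2.09 and 2.05. The summed antilogged level of the adipocyte genes described with the gut wall was 5837 with yogurt and 3906 in control. Car3 and Adipoq are members of that list, so the sum holds their own values and is no separate measure of fat. The part of adipocytes in these values was not tested. Gsdmc2, a gasdermin of the colonic epithelium, was at 7.78 and 6.54 (1.25) in ileum, far below its colon levels of 11.29 and 11.13. BC018473 was at least 2.93-fold higher, at 7.03 against a control value of 4.48 below the floor, and was higher with yogurt in all 5 tissues. U90926 was at least 2.77-fold higher, at 6.94 against 5.36.

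On the other side, Reg1, a secreted C-type lectin of pancreas and proximal gut, was at 5.97 with yogurt and 7.74 in control, 3.43-fold lower (ratio -1.78). Its jejunum levels were far higher and equal between diets, 13.65 and 13.61. Foxp4, a forkhead transcription factor, was at 6.37 and 7.73 (-1.37), while 2 other probe sets of the gene gave -0.05 and 0.24. Car1, a carbonic anhydrase typical of colonocytes, was at 7.54 and 8.81 (-1.27). Mid1, a ubiquitin ligase bound to microtubules, was at 6.23 and 7.24 (-1.01) and was lower with yogurt in all 5 tissues. Raising the floor to the 65th percentile of each array, called the higher floor from here on, gave ratios for Adipoq, Cyp2e1, BC018473, U90926 and Mid1 of 0.73, 0.40, 0.39, 0.30 and -0.64, no longer past 2-fold. With the mean of probe sets those of Car3 and Foxp4 were 0.93 and -0.39.

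Behind these genes stood bright genes with smaller ratios, from -0.99 to 1.00. Mt2, a metallothionein that binds zinc and copper, was at 10.23 and 11.22 (ratio -0.99). Cyp2c55, a colonic and hepatic cytochrome, was at 7.49 and 8.47 (-0.98), and G6pc, the glucose-6-phosphatase that releases glucose from cells, had a ratio of -0.91 from a control level of 7.92. Iglv1, a lambda light chain segment, was at 9.42 and 10.24 (-0.82), and its other probe set above the floor gave -1.84. Rab30, a Golgi GTPase, had a ratio of -0.80, and Cirbp, the cold-inducible RNA-binding protein, one of -0.66. Arnt, the partner subunit of the aryl hydrocarbon receptor and of hypoxia-inducible factors, was at 7.66 and 8.28 (-0.63), or -0.36 with the mean of its probe sets. Chd8, a chromatin remodeller, had a ratio of -0.59, but the mean of its probe sets gave -0.13. Smim8 and 1810065E05Rik had ratios of -0.62 and -0.60. On the higher side stood Plscr2, a phospholipid scramblase, at 8.01 and 7.01 (1.00), Saa2, an acute phase serum amyloid, at 7.91 and 7.04 (0.88), and AA467197 at 10.52 and 9.82 (0.70). Hbegf, a growth factor that activates the epidermal growth factor receptor, was at 8.31 and 7.83 (0.48), and its second probe set gave 0.47. The carnitine transporter Slc22a16 also had a ratio of 0.48.

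**Figure D2:**
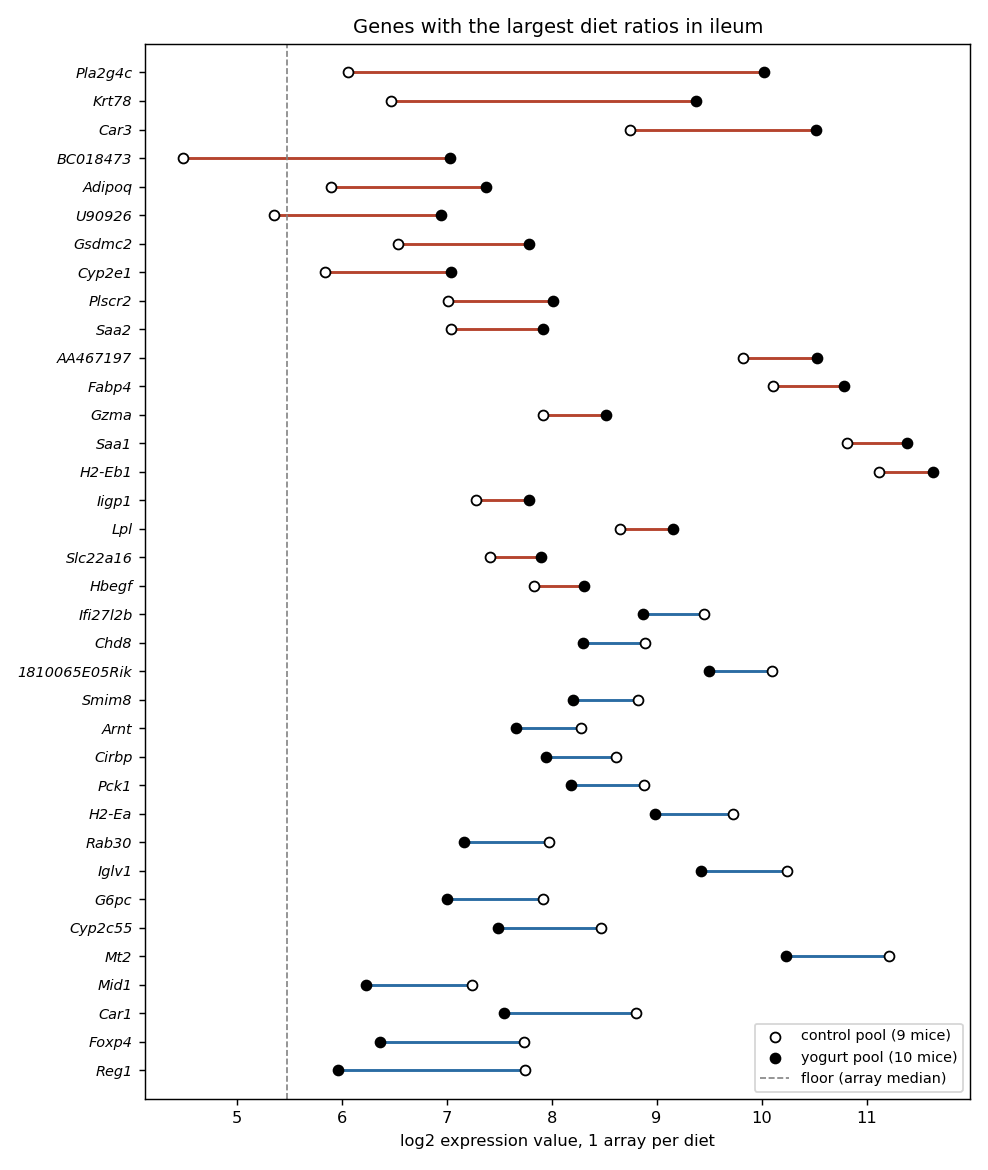
Log2 expression values of 36 leading genes in ileum (past 2-fold, or bright with a large ratio), with the control pool as an open circle and the yogurt pool as a filled circle (1 array each) and the floor as a dashed line. Lines are red where the yogurt pool was higher, as for Pla2g4c (10.02 against 6.06), and blue where it was lower, as for Reg1 (5.97 against 7.74).

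The bile acid machinery that defines the ileum was close between the diets. Of 9 measured genes 3 had a ratio above 0 and 6 below, with a median of -0.08. The uptake transporter Slc10a2 had a ratio of 0.14, the carrier Fabp6 of 0.00, the exporters Slc51a and Slc51b of -0.07 and -0.10, and Fgf15 of -0.08, all within the spread between probe sets. The nuclear bile acid receptor Nr1h4 was at 10.49 and 10.66 (-0.17), and its target Nr0b2 was at 8.10 and 7.76 (0.33). The basolateral exporter Abcc3 was at 8.85 and 9.22 (-0.37), and the apical exporter Abcc2 had a ratio of -0.15.

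Genes of sugar uptake and glucose release were lower in the yogurt pool, with a median of -0.20 over 12 measured genes, 10 of them below 0 and 3 past 1.5-fold. These 3 were G6pc, the glucose-sensing cotransporter relative Slc5a4b at 6.69 and 7.53 (-0.83), and Pck1, the first committed enzyme of gluconeogenesis, at 8.19 and 8.88 (-0.69). A second Pck1 probe set was at 4.80 and 5.54, with the yogurt value below the floor and so a ratio of at most -0.06. The fructose transporter Slc2a5 was at 7.76 and 8.12 (-0.35), Slc5a4a at 6.19 and 6.50 (-0.32) and the glucose-6-phosphate transporter Slc37a4 at 8.65 and 8.87 (-0.21). Khk, which phosphorylates fructose, had a ratio of -0.18, Fbp2 of -0.15 and Fbp1 of -0.05. The main carriers of glucose entry and exit, Slc5a1 and Slc2a2, were equal between the pools, with ratios of -0.00 and 0.02. Tkfc, a kinase of the fructose pathway, was higher, at 7.79 and 7.41 (0.37). In jejunum G6pc and Pck1 had the opposite sign, 0.50 and 0.53.

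Genes of fat absorption and oxidation also lay mostly below 0, as did 62.1% of all genes. Below the median of all genes lay 13 of 21 lipid uptake and apolipoprotein genes and 21 of 24 oxidation genes. Of 21 genes of lipid uptake and apolipoproteins 17 had a ratio below 0 (median -0.08), led by Apoc2, the activator of lipoprotein lipase (-0.46), Apoa4 (-0.36), the fatty acid transporter Slc27a4 (-0.23) and Mttp, which loads chylomicrons (-0.20). The cholesterol importer Npc1l1 (0.24) and the fatty acid receptor Cd36 (0.23) were the highest of the list. Of 24 fatty acid oxidation genes 21 were below 0 (median -0.14). Angptl4, a secreted inhibitor of lipoprotein lipase and a PPAR target, was at 9.00 and 9.57 (-0.57, or -0.35 with the mean of its probe sets). The receptor Ppara was at 8.84 and 9.12 (-0.28), the carnitine carrier Slc25a20 at 11.21 and 11.48 (-0.27) and the peroxisomal thiolase Acaa1a at 8.23 and 8.47 (-0.24). The highest of the list were Hadhb at 0.05 and Acaa1b (0.02). Lipogenesis genes were balanced, with 8 of 15 above 0 (median 0.01). Thrsp and the desaturase Scd1 stood out at ratios of 0.84 and 0.43 (0.13 for Scd1 with the mean of its probe sets), and Fads2 was at -0.35, while Fads1 (0.08), Mlxipl (0.14) and Acacb (-0.16) were close to 0.

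All 20 measured cholesterol synthesis genes had a ratio below 0, and all 20 also lay below the median of all genes, -0.04. Single differences were small, and the list median was -0.11. Srebf2, the transcription factor that drives the pathway, was at 8.65 and 8.95 (-0.30). Fdft1, which makes squalene, was at 10.57 and 10.86 (-0.29), Mvd at 8.09 and 8.37 (-0.28) and Lss at 8.38 and 8.61 (-0.23). Tm7sf2 was the nearest to 0, at -0.04. Relative to the median of all genes the list median lay lower by 0.07.

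Amino acid and peptide transport had 11 of 15 genes below 0 (median -0.11), led by Slc7a15 (-0.55), the broad transporter Slc6a14 (-0.40), Slc3a1 (-0.21) and Slc7a7 (-0.20). The peptide transporter Slc15a1 was at 9.42 and 9.12 (0.30), and Slc7a8 had a ratio of 0.22. Slc6a14 was at -0.18 with the mean of its probe sets and at 0.04 with the probe set that was brightest in ileum. Brush border hydrolases were flat, with a median of -0.04 over 12 genes and Mme as the farthest at -0.32. Mgam (0.04), Anpep (-0.04), Alpi (0.03) and Dpp4 (-0.05) were all within the spread between probe sets. So were Ace (-0.13), Mep1a (-0.10), Mep1b (-0.09), Xpnpep2 (-0.08), Enpep (0.01), Naaladl1 (0.06) and Treh (0.09).

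Enzymes that clear drugs and dietary compounds were lower in most cases, 20 of 24, with a median of -0.12. Against the median of all genes, 18 of the 24 lay below. Cyp2c55 led, followed by Cyp3a11, the major drug-metabolising cytochrome, at 8.28 and 8.84 (-0.56), Cyp2c65 at 9.22 and 9.69 (-0.47) and the carboxylesterase Ces1g at 8.41 and 8.75 (-0.34). The receptor Nr1i2, which induces several of them, was at 7.93 and 8.15 (-0.22), and the efflux pump Abcb1a at 11.88 and 12.15 (-0.27). The exceptions above 0 included Cyp2e1 and Ces2e (0.12). Nrf2 targets and glutathione enzymes had 18 of 22 below 0 but a median of -0.07. Gsta3 was the lowest at -0.50, then Gss at -0.38, Gstm3 at -0.28 and Gsta4 at -0.26. Gpx2, the epithelial glutathione peroxidase, was at 12.05 and 11.77 (0.28), and Cat (0.03), catalase, was level.

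Metallothioneins and zinc transporters were lower nearly throughout, 11 of 12 measured genes, with a median of -0.13. Mt2 was at 10.23 and 11.22. Its neighbour Mt1 was at 11.49 and 11.93 (-0.43), which makes both metallothioneins of the ileum lower in the yogurt pool. Mt3 and Mt4 were below the floor. The summed antilogged level of the list was 10094 with yogurt and 12786 in control. Slc30a10, an exporter of manganese, was at 5.80 and 6.23 (-0.43), the zinc exporter Slc30a2 of secretory cells at 7.52 and 7.87 (-0.35) and the basolateral zinc exporter Slc30a1 at 10.33 and 10.49 (-0.16). The metal-sensing factor Mtf1 had a ratio of -0.13, and the zinc importers Slc39a4, Slc39a5, Slc39a14 and Slc39a8 had -0.12, -0.08, -0.06 and 0.00. Slc30a7 and Slc30a5 were at -0.11 and -0.05. Mt2 was also lower with yogurt in jejunum (-0.70), distal colon (-0.34) and spleen (-0.28), and higher in liver (0.33).

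Mt2 and Mt1 lie next to each other on chromosome 8 and are textbook targets of Mtf1, which binds metal response elements. Their promoters are shown because both genes were lower together. The windows are the 250 bases before a transcript start that RefSeq lists, build GRCm38.p6, plus strand, at chr8:94172368-94172617 for Mt2 and chr8:94178839-94179088 for Mt1, and capitals mark matches to the element's core, TGCACNC or TGCGCNC, searched on both strands.
Mt2: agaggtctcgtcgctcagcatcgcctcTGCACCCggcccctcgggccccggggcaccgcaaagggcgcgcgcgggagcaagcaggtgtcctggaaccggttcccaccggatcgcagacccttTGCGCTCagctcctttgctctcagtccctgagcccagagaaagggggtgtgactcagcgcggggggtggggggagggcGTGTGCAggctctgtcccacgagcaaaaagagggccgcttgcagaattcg
Mt1: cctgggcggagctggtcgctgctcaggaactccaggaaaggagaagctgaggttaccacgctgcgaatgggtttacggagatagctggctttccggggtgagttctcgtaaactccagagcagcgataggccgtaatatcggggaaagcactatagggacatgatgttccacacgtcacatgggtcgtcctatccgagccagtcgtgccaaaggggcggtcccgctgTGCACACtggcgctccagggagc
The Mt2 window holds 3 matches, starting 223, 128 and 50 bases before the transcript start, the last of them on the minus strand and so printed as its reverse complement. The Mt1 window holds 1 match, 23 bases before its transcript start. Bases after the listed starts were not searched, so these counts belong to the windows and do not rank the 2 genes. The Mt2 window lies wholly before the gene, whereas the gene span of Mt1 begins upstream of that transcript start, at base 94178883, so 206 bases of its window, the match among them, lie inside the span. Of 32851 promoter windows of this length 21.4% hold at least 1 match and 5.17% at least 2. Of the 10 members of the list with a window, 8 hold a match, and Slc30a10 also has 3. A match is a stretch of letters and not a measured binding site.

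Ion and water transport had 18 of 23 genes below 0 with a median of -0.06, near that of all genes. Car1 was the lowest, then the water and glycerol channel Aqp7 (-0.50, or -0.09 with the higher floor), Car2 (-0.23) and the sodium exchanger Slc9a2 (-0.21). Guanylin and uroguanylin, the peptides Guca2a and Guca2b that trigger chloride secretion, both had ratios of -0.16. The chloride channel Cftr was at 9.89 and 9.66 (0.23), and the sodium channel subunit Scnn1a (0.21) went the same way. Iron genes were close between the pools, with a median of 0.03 over 9 genes, from the importer Slc11a2 at -0.15 to Hp, whose control value was at the floor, at 0.28. Heph was at -0.05, Slc40a1 at 0.14, Tfrc at 0.15 and Fth1 at -0.07. The other measured members were Slc46a1 (-0.03), Ireb2 (0.03) and Cybrd1 (0.15).

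Goblet cell genes as a whole were level (median -0.05 over 22), while some secreted or glycosylating members were lower. Retnlb, an antibacterial goblet cell protein, was at 11.62 and 12.12 (-0.51), St6galnac6, a sialyltransferase, at 8.24 and 8.79 (-0.54), Capn9 at 7.69 and 8.08 (-0.40) and Bcas1 at 9.15 and 9.44 (-0.29). The mucin Muc2 (-0.02), Tff3 (-0.06), Fcgbp (-0.02) and Zg16 (0.04) did not follow. Fut2, the secretor fucosyltransferase, had a ratio of 0.28 and Spdef, a goblet cell transcription factor, of 0.10.

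Paneth cell and antimicrobial genes had 11 of 17 members above 0 and a median of 0.07. Ang4, an antibacterial ribonuclease, was at 12.11 and 11.65 (0.46), and Lcn2, a siderophore-binding protein, at 6.78 and 6.17 (0.60), or 0.14 with the higher floor. Pnliprp2 was at 10.80 and 10.55 (0.25). Most of the abundant products were close between the pools: Defa31 had a ratio of -0.00, Reg3b of 0.01, Reg3g of 0.10 and Lyz1 of 0.07. Itln1 was slightly higher, at 12.96 and 12.80 (0.16). The lowest of the list were Nupr1 (-0.09) and Reg4 (-0.07), and Defb1 was at least 0.22. Enteroendocrine genes were balanced, 9 above and 9 below 0, with Cck at 7.34 and 6.94 (0.40) and the incretin precursor Gcg at 11.31 and 11.11 (0.19). The prohormone convertase Pcsk1 was at 6.07 and 6.63 (-0.55), Pyy at -0.15, Tph1 at -0.14 and Sst at -0.14. Of 13 matched tuft cell genes 6 were below the floor in both pools, and Sh2d6, Rgs13, Avil and Gng13 did not reach the higher floor. Of the 7 measured, 6 were above 0 (median 0.08). The 7 were Sh2d6 (0.34) and Rgs13 (0.21), both with the control value below the floor, Avil (0.09), Ltc4s (0.08), Alox5ap (0.07), Cd24a (0.07) and Gng13 (-0.07). Sh2d6 and Rgs13 were measured through the yogurt pool alone, so their ratios could only be above 0.

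Crypt stem cell genes and proliferation genes differed little, with medians of 0.02 over 16 genes and 0.02 over 24. Lgr5, the stem cell receptor, had a ratio of 0.12, Olfm4 of 0.08, Mki67 of 0.12, Ccna2 of 0.19 and the replication helicase subunit Mcm2 of 0.30. The stem cell genes Ascl2 (0.07), Cdca7 (0.07), Axin2 (-0.12) and Tnfrsf19 (-0.17) lay on both sides of 0, and so did the mitotic genes Bub1b (0.13), Kif11 (0.12), Aurkb (-0.13) and Kif20a (-0.16). Tight junction genes had a median of -0.01 over 16, from Cgn and Ocln at -0.17 each to Cldn8 at 0.17, with F11r (-0.11), Cldn7 (-0.08) and Cldn23 (0.08) in between. Of the gut position factors, Hnf4g was at 9.61 and 9.11 (0.51, or 0.17 with the mean of its probe sets), while Creb3l3 was at -0.41, Osr2 at -0.34 and Cdx2 at -0.27. Hnf4a (-0.02), Cdx1 (-0.04) and Gata6 (-0.06) were level, and the jejunal factor Gata4 lay at the floor in the control pool and just above it in the yogurt pool.

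MHC class II genes were above 0 in 8 of 9 cases with a median of 0.17. H2-Eb1 was at 11.63 and 11.11 (0.52), the invariant chain Cd74 at 11.57 and 11.31 (0.26), H2-DMb2 at 7.09 and 6.83 (0.26), H2-Aa at 12.29 and 12.09 (0.20) and H2-Ab1 at 11.64 and 11.47 (0.17). H2-Eb2 was at 0.17, H2-DMa at 0.06 and the master regulator Ciita at 0.04. H2-Oa, which restrains peptide loading, was at -0.26. H2-Ea, a class II alpha chain outside this list, went the other way at 8.98 and 9.73 (-0.75), and its other probe set above the floor gave -1.33. Class I processing genes had a median of -0.06 over 11, with the peptide transporter subunit Tap2 at 7.63 and 8.19 (-0.56) and its partner Tap1 at 0.08. Erap1 was at -0.15, Psmb10 at -0.14, H2-K1 at -0.12 and B2m at 0.04. The other members were Psmb9 (-0.10), H2-D1 (-0.06), H2-M3 (-0.03), Psmb8 (-0.01) and Tapbp (0.07).

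T cell and cytotoxic genes were above 0 in 11 of 14 cases with a median of 0.17. Another 10 of the 24 matched genes were below the floor in both pools. Over the alternative floors, probe sets and scalings the list median ran from 0.048 to 0.21. Gzma, a granzyme of cytotoxic lymphocytes, was at 8.52 and 7.92 (0.60), Cd6 at 6.14 and 5.77 (0.37), Cd3e at 6.87 and 6.62 (0.26) and Cd4 at 6.71 and 6.47 (0.24). Cd8a (-0.01), Cd3d (-0.02) and Klrd1 (-0.04) were at or below 0. Macrophage and dendritic cell genes were above 0 in 14 of 21 cases (median 0.10), led by the complement chain C1qb (0.32), Cd163 (0.20), Csf1r (0.20) and Msr1 (0.17). Cd14 was the lowest, at 9.92 and 10.24 (-0.32), then Cd209a (-0.11). Other C1qb probe sets gave 0.08 and 0.29.

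Plasma cell genes were level with a median of 0.03 over 15. The IgA heavy chain Igha, at 14.02 and 13.99, and Jchain, at 12.99 and 12.92, were bright and equal. The lowest of the list was the lambda segment Iglv1 at -0.82, with -1.84 for its other probe set above the floor. The plasma cell receptor Tnfrsf17 was at -0.25. The highest was Ighg3 at 0.37, followed by Ighm (0.10), Edem2 (0.09) and Derl3 (0.09). B cell genes had a median of 0.00 over 13, and 7 of 20, Ms4a1 and Pax5 among them, were below the floor in both pools. The lowest measured B cell genes were Cd79a (-0.25) and Blk (-0.15), and the highest were Cxcl13 (0.10), Mef2b (0.08) and Ccr6 (0.03) beside Rgs13. Neutrophil markers were near the floor: S100a8 was at 6.27 against a control value of 5.09 below the floor, at least 1.73-fold higher, S100a9 was at 5.51 and 4.89, and 10 of 16 were below the floor in both pools. The other measured ones were Csf3r (0.13), Elane (0.11), Il1b (-0.11) and Mmp9 (-0.27). Of 18 mast cell and eosinophil genes 13 were below the floor in both pools, and Hdc, which makes histamine, was at 5.90 and 5.48 (0.41). The other 4 were Ccl24 (0.14), Kit (0.13), Mcpt2 (0.00) and Ccl11 (-0.18).

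Interferon-stimulated genes showed no common direction, 10 above and 12 below 0. The immunity-related GTPases Iigp1, at 7.78 and 7.28 (0.51), and Gbp3, at 7.06 and 6.63 (0.43), were higher, whereas Irf7 (-0.34), Dhx58 (-0.27), Stat2 (-0.18) and Ifit1 (-0.13) were lower. Ifi27l2b was at 8.87 and 9.45 (-0.58), lower with yogurt in all 5 tissues. Bacterial sensing genes had a median of -0.05 over 17, from Cd14 at -0.32 and Irak3, with the yogurt value at the floor, at -0.24 to Tlr5, the flagellin receptor, at 0.24 and Tlr2 at 0.20, with Naip5 (-0.14) and Nfkbia (-0.14) also below 0. Acute phase genes had 8 of 10 measured members above 0 and a median of 0.33. Saa2 led, then Lcn2, Saa1 at 11.39 and 10.82 (0.57), Serpina3n at 7.36 and 6.95 (0.41), Saa3 at 6.82 and 6.46 (0.37), Cp at 0.29, Hp at 0.28 and Lrg1 at 0.27. Cfb was at -0.09 and Lbp at -0.04. With a pseudocount in place of a floor the list median was 0.078. The liver-made fibrinogens Fga, Fgb and Fgg were below the floor, and 11 of 21 matched genes were below it in both pools.

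**Figure D3:**
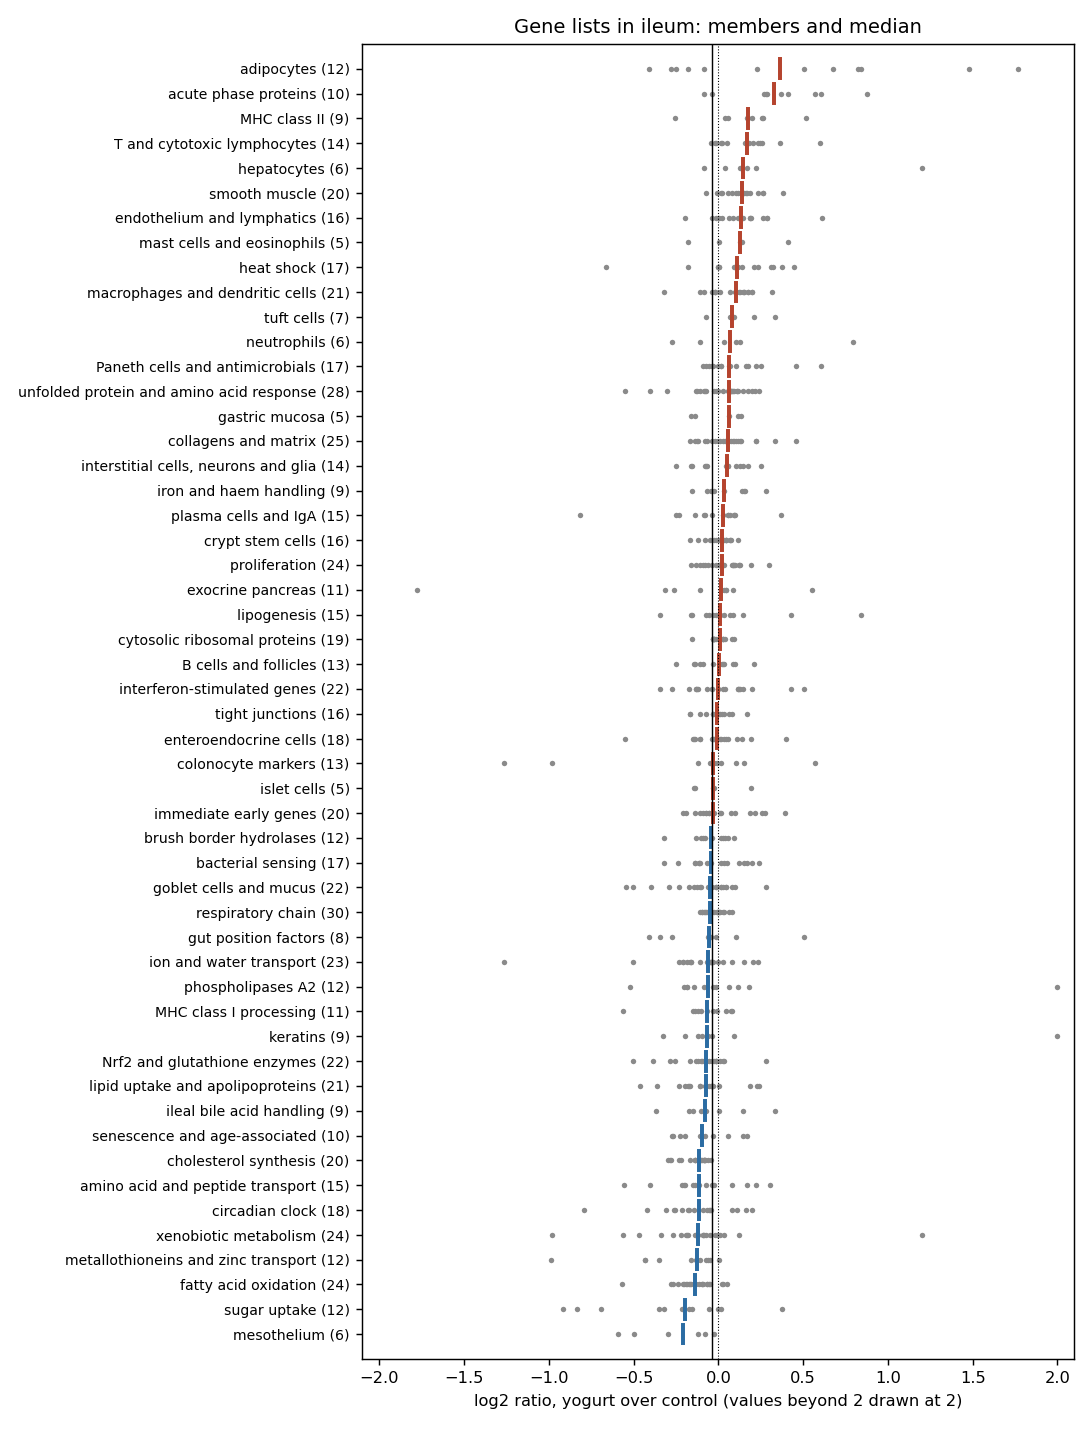
Log2 ratios in ileum of the measured members of 52 gene lists (grey points, number of members in brackets), with the list median as a bar, red above and blue below the median of all measured genes (solid line, -0.04) and values beyond 2 drawn at 2. Adipocyte (0.37) and acute phase lists (0.33) had the highest medians, mesothelium (-0.21) and sugar uptake (-0.20) the lowest.

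Adipocyte genes split into a higher and a lower set. Of 12 measured members 7 were above 0 and 5 below, the median was 0.37, and the summed antilogged level was 5837 with yogurt and 3906 in control, a ratio of 1.49. Next to Car3 and Adipoq stood Retn, the adipokine resistin, at 6.98 and 6.15 (0.82), Thrsp at 6.81 and 5.96 (0.84), the fatty acid carrier Fabp4 at 10.78 and 10.11 (0.67), Lpl, which releases fatty acids from lipoproteins, at 9.16 and 8.65 (0.51), and Cd36 at 0.23. The adipogenic receptor Pparg was at 6.93 and 7.34 (-0.41), the hormone-sensitive lipase Lipe at 7.22 and 7.50 (-0.28), Cidec at -0.25, Pnpla2 at -0.18 and Fabp5 at -0.08. Leptin (Lep), Ucp1 and Slc36a2 were below the floor in both pools. Of the markers used for adipocytes, Adipoq, Retn, Fabp4 and Car3 were higher and Lep was below the floor. Lpl, Thrsp, Cd36, Scd1 and Cyp2e1 had the same sign as those that were higher. Pparg, Lipe, Cidec, Pnpla2 and Fabp5 had the opposite sign. What adipocytes contributed to any of these values was not tested. The list median was 0.20 with the higher floor (Retn 0.34, Thrsp 0.17), 0.17 without a floor and 0.065 with a pseudocount.

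Genes of the muscle coat and of the vessels mostly had small ratios above 0, and the amount of either tissue was not measured. Smooth muscle genes were above 0 in 18 of 20 cases with a median of 0.14. Synm, an intermediate filament protein, was at 10.02 and 9.63 (0.38), Des at 10.01 and 9.75 (0.26), Actg2, the enteric smooth muscle actin, at 11.35 and 11.09 (0.26), and Flna at 10.90 and 10.67 (0.24). Ckm (-0.07) and Myocd (-0.01) were below 0. Endothelial and lymphatic genes were above 0 in 13 of 16 cases (median 0.13), led by the vascular cadherin Cdh5 at 6.98 and 6.37 (0.61), the addressin Madcam1 (0.29), Vwf (0.29) and Plvap (0.26), with Tie1 at -0.20 and Lyve1 (-0.04) below 0. The mean of the Cdh5 probe sets gave 0.12, and that of the Col5a1 probe sets, a matrix gene, 0.03. Collagens and matrix genes had a median of 0.06 over 25, with Col1a1 at 6.72 and 6.26 (0.46), Col5a1 at 0.33, Col4a1 at 0.22 and Fn1 at 0.22, while Lum was at -0.17 and Mmp10 at -0.14. With the higher floor Col1a1 had 0.08, and Col1a2 and Col3a1, far brighter, were at -0.00 and 0.10. Neuronal, glial and interstitial genes had a median of 0.05 over 14, with the glial factor Sox10 at 0.25, Ret at -0.25 and Vip at -0.16, and Hand2 (0.18), Prph (0.14) and Kit (0.13) above 0.

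Mesothelial genes, from the outer lining of the gut, were lower in 6 of 6 measured cases, with a median of -0.21. Upk3b was at 6.02 and 6.62 (-0.59), Gpm6a at 5.71 and 6.21 (-0.50), Upk1b at 7.89 and 8.19 (-0.30), Krt19 at -0.12, Slpi at -0.08 and Efemp1 at -0.02. Krt19 and Slpi are also epithelial genes, and Msln, Wt1, Lrrn4 and Muc16 were below the floor in both pools. Of 22 matched genes of exocrine pancreas 11 were below the floor in both, and the measured ones had a median of 0.02, with Cela3b at 6.61 and 6.06 (0.55, or -0.03 with the higher floor), Cela1 at 8.23 and 8.55 (-0.31), Gp2 at 5.92 and 6.18 (-0.26), Ctrb1 at -0.11 and Clps at 0.09 beside Reg1. The others were Spink1 (0.01), Sycn (0.02), Pnliprp1 (0.04) and Ctrl (0.05). Islet genes had a median of -0.03 over 5, with Iapp (-0.15), Ppy (-0.03) and Ins2 (-0.02) beside Gcg and Sst. Gastric genes had one of 0.06 over 5, with Atp4b (-0.16), Tff1 (0.06), Gkn2 (0.12) and Tff2 (0.13) beside Sst. Hepatocyte genes had one of 0.15 over 6, with Ttr (-0.08), Tat (0.04), Cps1 (0.13), Serpina1b (0.17) and Apoh (0.22) beside Cyp2e1.

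Of 18 clock genes 14 had a ratio below 0, and the median was -0.12. Ciart, a repressor of the Clock and Arntl pair, was at 5.93 and 6.72 (-0.79), or -0.11 with the higher floor. The nuclear receptor Nr1d1 was at 6.68 and 7.10 (-0.42), Per3 at 7.12 and 7.43 (-0.31) and Cry2 at 7.14 and 7.40 (-0.26). The mean of the Per3 probe sets gave -0.10. Arntl was at -0.17 and Clock at -0.07. The output genes Hlf (0.20) and Nfil3 (0.17) were above 0. Clock transcripts also were lower on balance in the other 4 tissues, with medians of -0.18 in jejunum, -0.17 in distal colon, -0.35 in liver and -0.19 in spleen. The labels used here state no hour of killing.

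The promoter of Ciart is shown because it was the lowest clock gene and holds the E-box that the Clock and Arntl pair binds, CACGTG, which reads the same on both strands and is marked by capitals. The window, from RefSeq, build GRCm38.p6, minus strand, lies at chr3:95882229-95882478.
Ciart: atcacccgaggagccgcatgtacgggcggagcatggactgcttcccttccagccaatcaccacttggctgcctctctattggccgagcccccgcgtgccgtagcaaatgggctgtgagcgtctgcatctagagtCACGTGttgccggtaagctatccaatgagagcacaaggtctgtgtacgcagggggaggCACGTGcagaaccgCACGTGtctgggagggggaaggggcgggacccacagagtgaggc
It holds 3 E-boxes, starting 116, 58 and 44 bases before the transcript start, where 6.02% of the 32851 windows hold at least 1 and 0.429% at least 2. The last 29 bases of the window lie inside the gene span. Of 16 clock genes with a window 4 hold at least 1, Per1, Cry1 and Tef besides Ciart. For the cholesterol genes the sterol element core TCACCCCA was searched on both strands in the same windows. It is present in 2 of 16 members with a window, Hmgcs1 and Srebf2, and in 1.34% of all windows. The Hmgcs1 window is shown as that of the first enzyme of the pathway in the list, at chr13:119690101-119690350 on the plus strand, with the match in capitals 137 bases before the start.
Hmgcs1: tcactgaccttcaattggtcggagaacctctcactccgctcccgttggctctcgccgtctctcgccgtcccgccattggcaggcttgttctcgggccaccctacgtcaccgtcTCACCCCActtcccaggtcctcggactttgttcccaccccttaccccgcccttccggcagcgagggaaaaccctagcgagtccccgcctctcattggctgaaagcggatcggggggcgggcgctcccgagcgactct
Hmgcs1 itself was at 12.31 and 12.40 (-0.08).

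Heat shock genes were above 0 in 13 of 17 cases with a median of 0.11. The chaperones Hsph1, at 9.90 and 9.45 (0.45), Hspa1b, at 9.75 and 9.37 (0.38), Hspa1a, at 6.22 and 5.90 (0.32), and Hspe1, at 11.49 and 11.18 (0.31), were the highest. The cold-inducible Cirbp, in the same list, had the opposite sign at 7.95 and 8.61 (-0.66) and was lower with yogurt in all 5 tissues. Hspa4 was at -0.18. Genes of the unfolded protein and amino acid response had a median of 0.06 over 28, with the chaperones Hyou1 (0.24), Pdia4 (0.20) and Dnajc3 (0.17) and the factor Atf3 (0.22) higher, and Chac1 (-0.55), Trib3 (-0.40) and Herpud1 (-0.30) lower. Immediate early genes had a median of -0.03 over 20, from Ier3 at -0.21 and Jun at -0.19 to Ccn2 at 0.39 and Egr3 at 0.28, with Btg2 (-0.14) and Zfp36 (-0.11) below 0. Senescence and age-associated genes had a median of -0.10 over 10. The cell cycle inhibitor Cdkn1a was at 10.94 and 11.17 (-0.23), the lysosomal Glb1 at 8.67 and 8.95 (-0.28), Ccl8 at -0.27, Lmnb1 at -0.20 and Cdkn2b at -0.08. Igfbp3 was at 0.15 and Tnf at 0.17, and Cxcl1 (-0.11), Plaur (-0.03) and Igfbp5 (0.06) lay between. The listed housekeeping genes had narrow ranges. The 30 respiratory chain genes ranged from -0.11 to 0.08 (median -0.05). Cox6c (-0.11), Atp5o (-0.10), Ndufa1 (-0.09) and Uqcrfs1 (-0.08) were lowest and Ndufa2 (0.06) and Sdhc (0.08) highest. The 19 ribosomal protein genes of the list ranged from -0.15 to 0.09 (median 0.01). Rps6 (0.09), Rpl11 (0.08), Rpl4 (0.04) and Rpl6 (0.03) were highest and Rps27 (-0.15) and Rps3 (-0.03) lowest. Rpl39, a ribosomal protein gene outside the list, was at 0.77.

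The ileum pools were also read with genes that mark the neighbouring segments, taken from the jejunum and colon arrays alone. Of 69 genes at least 8-fold higher in distal colon than in jejunum, 53 were measured in ileum, with 18 ratios above 0, 35 below and a median of -0.13. The list of colonocyte markers had 4 of 13 measured genes above 0 and a median of -0.03, with Tmem54 (-0.12) and Ceacam20 (-0.05) below 0 and the membrane-bound carbonic anhydrase Car4 (0.15) above it. The colon genes held 3 past 1.5-fold on each side, Car1, Cyp2c55 and 1810065E05Rik lower and Car3, Gsdmc2 and Saa2 higher. Of 145 genes at least 8-fold higher in jejunum than in distal colon, 120 were measured, with 36 above 0, 84 below and a median of -0.09. Gzma was the 1 of them past 1.5-fold higher, and Reg1 and G6pc were the 2 past 1.5-fold lower. Genes of the proximal and of the distal neighbour thus both had medians below that of all genes. Ratios of colon genes were more scattered, with quartiles of -0.34 and 0.05, against -0.19 and 0.02 for jejunum genes and -0.12 and 0.05 for all genes.

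**Figure D4:**
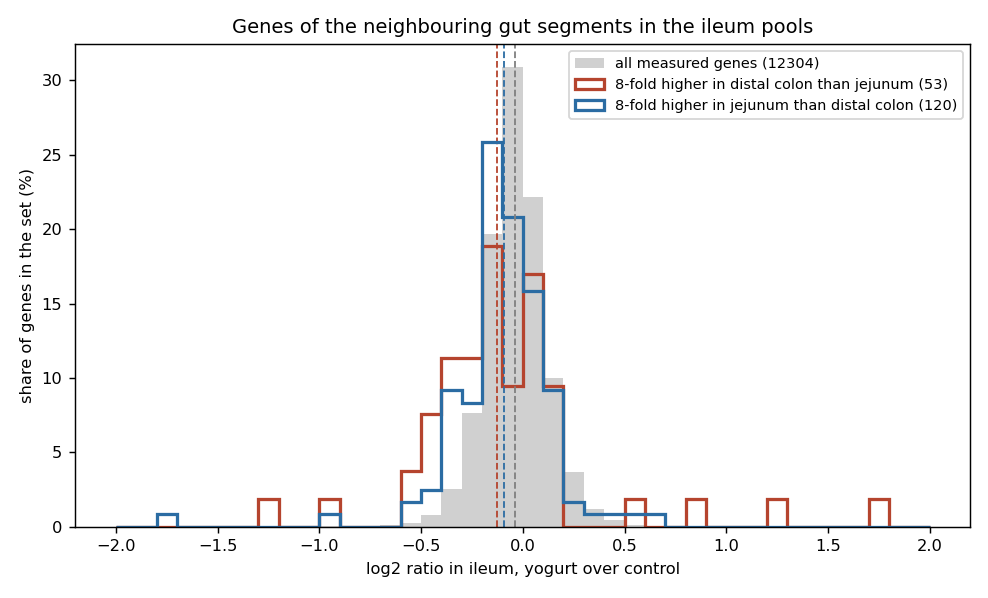
Distribution of the log2 ratio of yogurt over control in ileum (bins of 0.1) as a share of each gene set, for all measured genes (grey, 12304), genes 8-fold higher in distal colon than jejunum (red, 53) and the reverse (blue, 120). Dashed lines are the medians, -0.04, -0.13 and -0.09.

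Most of the leading ileum genes were not past 1.5-fold in the same direction elsewhere, which also holds for nearly all measured genes. At least 1.5-fold higher were 61 of 12167 genes in liver and 75 of 11883 in spleen. At least 1.5-fold lower were 30 genes in jejunum, 11 in distal colon, 41 in liver and 130 in spleen. A gene below the floor in a tissue was counted as not past it there. Of the 26 genes at least 1.5-fold higher in ileum, 16 were at least 1.5-fold higher in no other tissue and 2, BC018473 and S100a8, in all 4. Of the 36 lower genes, 30 were at least 1.5-fold lower in no other tissue and 1, Mid1, in all 4. Only 16 of the 26 higher genes and 20 of the 36 lower genes were measured in all 4 other tissues. Distal colon held the most of the higher genes, 8 of 24 measured there, against 117 of 12370 genes in all, and jejunum held 5 of 21, against 78 of 12280. In distal colon 5 of the lower genes were at least 1.5-fold higher, the opposite direction. By sign alone, the higher genes were above 0 in 16 of 21 cases in jejunum, 18 of 24 in colon, 14 of 20 in liver and 15 of 19 in spleen. The lower genes were below 0 in 18 of 30, 19 of 31, 16 of 26 and 15 of 23 cases. Of all measured genes, 5704 of 12280 were above 0 in jejunum, 5609 of 12370 in colon, 5132 of 12167 in liver and 4575 of 11883 in spleen. Below 0 were 6576, 6761, 7035 and 7308 of them, so the lower genes lay near the share of all genes. Over all genes measured in both, the Pearson correlation of the ratios was 0.25 with jejunum (11509 genes), 0.18 with spleen, 0.13 with liver and 0.11 with distal colon. These describe genes that share the same groups of mice, and genes are not independent replicates.

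**Figure D5:**
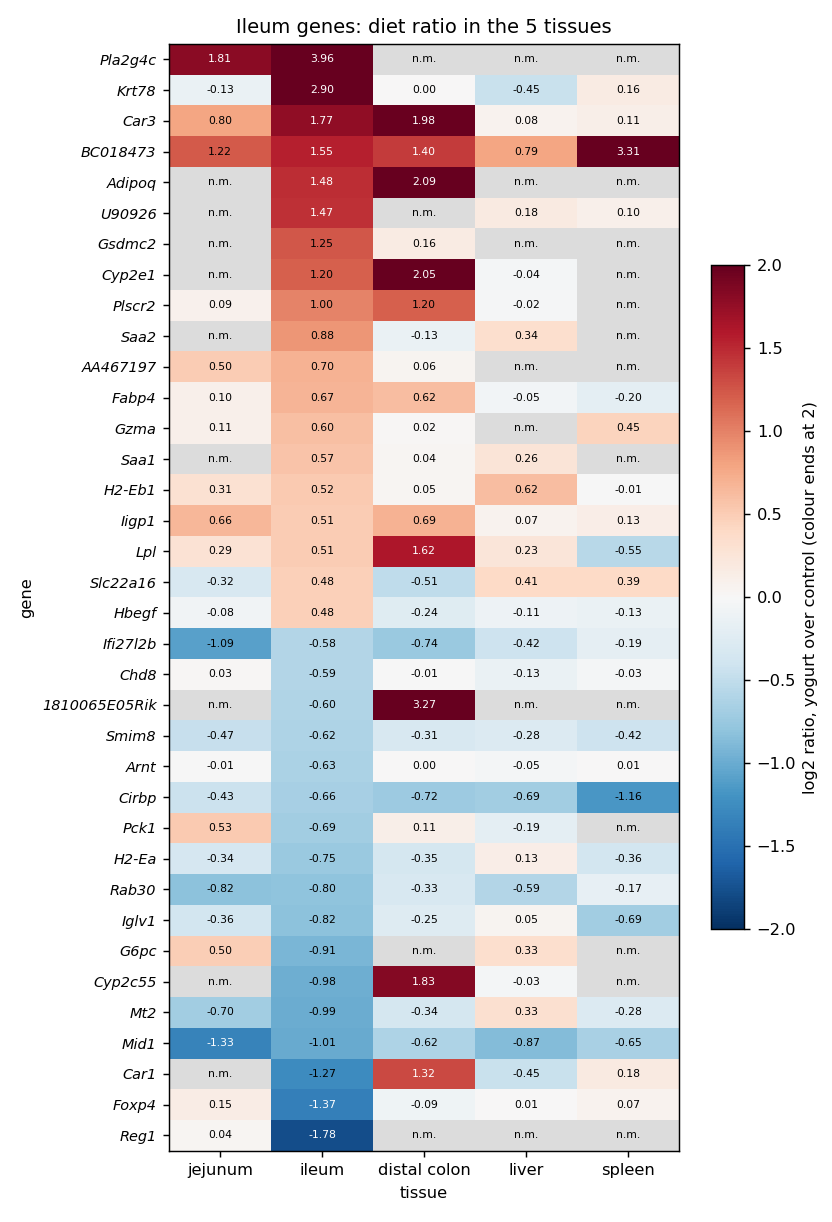
Log2 ratio of yogurt over control of the 36 leading ileum genes (rows) in the 5 tissues (columns), with the ratio printed in each cell, colour ending at 2, and n.m. for a gene below the floor on both arrays of that tissue. BC018473 is higher and Mid1 is lower in all 5 tissues, whereas Car1 and Cyp2c55 are lower in ileum and higher in distal colon.

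Whether a gene's ileum ratio differed from its ratios in the other tissues was tested across genes. A limma model with tissue, diet and an ileum-by-diet term was fitted to 9891 genes above the floor on all 10 arrays, with 3 residual degrees of freedom that come from the spread of the ratio over the 4 other tissues and not from mice. At a Benjamini-Hochberg adjusted p under 0.05 it called 0 genes higher (0%) and 0 lower (0%), with 171 (1.73%) at an unadjusted p under 0.05. Of the 12 genes past 2-fold, Foxp4 and Mid1 alone were among the genes fitted, so the 0 calls do not cover the others. Foxp4 came nearest, with an ileum ratio lower by 1.41 than the mean of the others (difference -1.41, SE 0.15, limma adjusted p = 0.085). Without the floor and with all 12304 genes of the ileum the same limma model called Krt78 (difference 3.01, SE 0.24, adjusted p = 0.019) and Reg1 (difference -1.75, SE 0.15, adjusted p = 0.023). Neither gene was above the floor on all 10 arrays, so this setting was the only one that fitted them. In colon, liver and spleen Reg1 was below the floor, at 3.91 to 4.06, and outside the ileum Krt78 was near it, at 5.44 to 6.04, so the SE of both rests largely on values at or near background. Pla2g4c had a difference of 2.99 in that setting (SE 0.93, limma adjusted p = 1.00).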

How the data were processed

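The data are 10 Affymetrix whole-genome mouse arrays, 1 pool of 9 or 10 mice per diet and tissue, with 100 ng of pooled RNA amplified per array, per the labels' protocols. The authors deposited log2 expression values per probe set. MAS5 and affy are named, without version or role, per the submitters' processing notes; how values were scaled is not stated in the labels. Values were used as deposited, with nothing rescaled.

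Of 45101 probe sets, 34958 had 1 gene symbol, 932 several (not used) and 9211 none here. Names came from the platform annotation and RefSeq GRCm38.p6. Each gene took its brightest probe set, by the mean of all 10 arrays, and values below the array median over non-control probe sets were raised to it. Where 1 side was at the floor, the ratio is a bound, and its sign is fixed by the pool above the floor. Array levels have no counting depth, and 1 array per diet limits the precision.

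The text names genes past 2-fold. It also names the 15 largest ratios in each direction of genes whose brighter array exceeded the 75th percentile and whose other probe sets above the floor had the same sign. Of each gene list it names every member where 12 or fewer were measured and otherwise the 4 farthest in the direction of the median and up to 2 in the other. Further members are named beside them to describe a group or check a label. The 52 lists name 1007 genes, and 903 had a probe set. The comparison, the lists and their members were chosen with earlier results of these data known.

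The ileum-by-diet term was fitted with limma 3.58.1 (lmFit, eBayes with trend) in R 4.3.3 and tested on simulated data. Other steps used Python 3.11.15 with pandas 2.3.3. Alternatives changed the floor (35th or 65th percentile, none, or a pseudocount of 32), the probe sets and the scaling, and for limma the genes, tissues and variance model.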

Additional observations from a re-analysis of the deposited data

Results flagged for a closer look

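A small set of genes was at least 1.5-fold lower in the yogurt pool of ileum and at least 1.5-fold higher in the yogurt pool of another tissue. Each tissue had 1 array per diet, so the difference between ileum and that other tissue was not tested. Car1, a carbonic anhydrase of colonocytes, had a log2 ratio of -1.27 in ileum (7.54 with yogurt, 8.81 in control) and of 1.32 in distal colon (12.71 and 11.39). The cytochrome Cyp2c55 had -0.98 in ileum (7.49 and 8.47) and 1.83 in colon (11.46 and 9.63). The transcript 1810065E05Rik had -0.60 in ileum (9.50 and 10.10) and 3.27 in colon (11.96 and 8.69). Ido1, which degrades tryptophan, had -0.90 in ileum (6.62 and 7.52) and 0.70 in colon, where the control value of 4.67 was below the floor. Cd177, a neutrophil surface protein that gut epithelium also expresses, had -0.66 in ileum, where the yogurt value of 5.17 was below the floor, 1.01 in colon and 1.18 in spleen. In the ileum-by-diet term of limma without the floor, the differences of Car1, Cyp2c55 and 1810065E05Rik from the mean of the 4 other tissues were -1.63 (SE 0.52), -1.26 (SE 0.74) and -1.48 (SE 1.11), with limma adjusted p = 1.00 for all 3.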

How the results depend on the processing

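No paired analysis was possible because each group has 1 array, so no replicate numbers recur to pair; the tissue term of the limma model sets the diets side by side within each tissue. All 36 leading genes kept the sign of their ratio in every setting that measured them, and 5 of the 12 past 2-fold stayed past it. The 36 were chosen for large ratios, and the bright ones also for agreement in sign between probe sets. Every setting reads the same 2 ileum arrays, so a kept sign was largely set by that choice and is no replicate check. Raising the floor to the 65th percentile left 4 genes at least 2-fold higher, 12 at least 1.5-fold higher and 21 at least 1.5-fold lower. With a pseudocount instead of a floor 16 were at least 1.5-fold higher and 19 lower. With the mean of all probe sets 2 were at least 2-fold lower. Of the 17 lists whose median lay at least 0.1 from that of all genes, 16 kept the sign of their median. The mast cell and eosinophil list reversed, to -0.024 with that higher floor, -0.0057 with no floor, -0.0016 with the pseudocount and -0.020 with the mean of probe sets. The limma comparison called 1 gene higher and 1 lower without the floor, Krt78 and Reg1, and 0 in both directions in every other setting, including each fit that left out 1 of the 4 other tissues (0 to 0). Those other settings fitted only genes above the floor on all 10 arrays. Signal over background limits the dim genes, whose ratios depend on where the floor is set.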

Other observations

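Among the genes past 1.5-fold that belong to no list above, several were dim and chosen here after their values were seen. Nfrkb, a subunit of a chromatin remodelling complex, was at 6.28 with yogurt and 7.27 in control (log2 ratio -0.99). Plb1, an intestinal phospholipase of the brush border, was at 5.85 and 6.80 (-0.95). Ddx60, an antiviral helicase, was at 6.16 and 6.97 (-0.82). Sprr1a, a small proline-rich protein of stratified epithelia, was at 6.98 and 7.61 (-0.63), the opposite sign to the keratin Krt78. B3gnt3, a glycosyltransferase that extends mucin sugars, was at 6.37 and 6.98 (-0.61), and the sialyltransferase St6galnac4 was at 6.61 and 7.20 (-0.60), the same sign as St6galnac6. On the higher side Selp, the platelet and endothelial selectin, was at 6.43 and 5.83 (0.61), the same sign as Cdh5, and Gbp2b, an interferon-induced GTPase, was at 6.31 and 5.70 (0.62). Psca was at 7.59 and 6.96 (0.63), Kcnj10, a potassium channel, at 6.44 and 5.74 (0.70) and Rpl39, a ribosomal protein, at 7.36 and 6.59 (0.77).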
